A study of Rattus norvegicus with 12 samples.

Results

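WB311 is a tumorigenic rat liver epithelial cell line that arose spontaneously in culture from WB-F344, a diploid and non-tumorigenic epithelial line started from the liver of an adult male Fischer rat. The 2 lines were compared here without any drug. For each line, 3 plates were exposed to the vehicle, DMSO, for 24 hr in the same serum-containing medium, and total RNA of each plate was hybridized to 1 Affymetrix rat expression array. The comparison covers 6 of the 12 arrays, and the other 6 hold the same lines exposed to 50 nM rapamycin for 24 hr. All probe sets other than array controls were taken whose average intensity reached 100 in at least 1 line, which was 13871 of 31042. With the brightest probe set taken for each gene, 8522 of the 14217 genes with a single symbol were tested. The labels give a doubling time of 15.5 hr for WB311 and of 42 hr for WB-F344, and call WB311 resistant and WB-F344 sensitive to rapamycin. Each line is 1 culture lineage, so the p-values measure the spread between plates and not between independent transformation events.

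WB-F344 cells are used as a model of the epithelial progenitor-like cells of adult liver, which can take on hepatocyte or bile duct features. In cells of this kind, entry into the DNA synthesis phase is held back by inhibitors of cyclin-dependent kinases, which keep the retinoblastoma protein active, and by p53. Adhesion to collagen through integrins, tension in the actin cytoskeleton and secreted growth factors set how often cells divide, and tumorigenic cells often depend less on each of them.

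Both lines were nearly silent for the products of mature hepatocytes. Of 22 hepatocyte markers measured, 18 stayed under 100 in both lines, with albumin (Alb) at 32.5, 36.7 and 31.4 in WB311 plates, against 32.5, 30.9 and 36.4 in WB-F344 plates. Among the 4 tested markers, the pioneer factor Foxa2 was higher in WB311 and the urea cycle enzyme Arg1 and the apolipoprotein Apoc3 were lower. The epithelial keratin Krt8 was strong in both lines, at 6103 ± 211 in WB311 and 2986 ± 202 in WB-F344 (mean ± SD, n = 3 each, as in all such values). Of 19 leukocyte and 12 endothelial markers measured, 17 and 11 were under 100 in both lines. The plates of WB311 correlated with each other at 0.996 over the tested probe sets and those of WB-F344 at 0.968 to 0.996, against 0.787 to 0.818 between the lines. Plate 2 of WB-F344 stood apart from the other 2 of its line, and results that lean on it are given without it below.

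Of the 13871 probe sets, 7699 (55.5%) were called, 3830 (27.6%) higher and 3869 (27.9%) lower in WB311, where a call needs a Benjamini-Hochberg adjusted p under 0.05 in limma and a change of at least 1.2-fold. Counted by gene, with 1 probe set for each, 56.5% of 8522 genes were called, 27.8% higher and 28.7% lower, and these shares are the background for each list that follows. Large falls outnumbered large rises. A change of over 8-fold was called in 74 genes (0.868%) that were higher and 150 (1.76%) that were lower, and one of over 32-fold in 13 (0.153%) and 49 (0.575%). The plates of the lines did not overlap in 66.4% of probe sets and 69.4% of genes. Without plate 2 of WB-F344, 7931 probe sets were called, 4189 higher and 3742 lower, and 7075 of the 7699 calls were kept in the same direction.

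**Figure D1:**
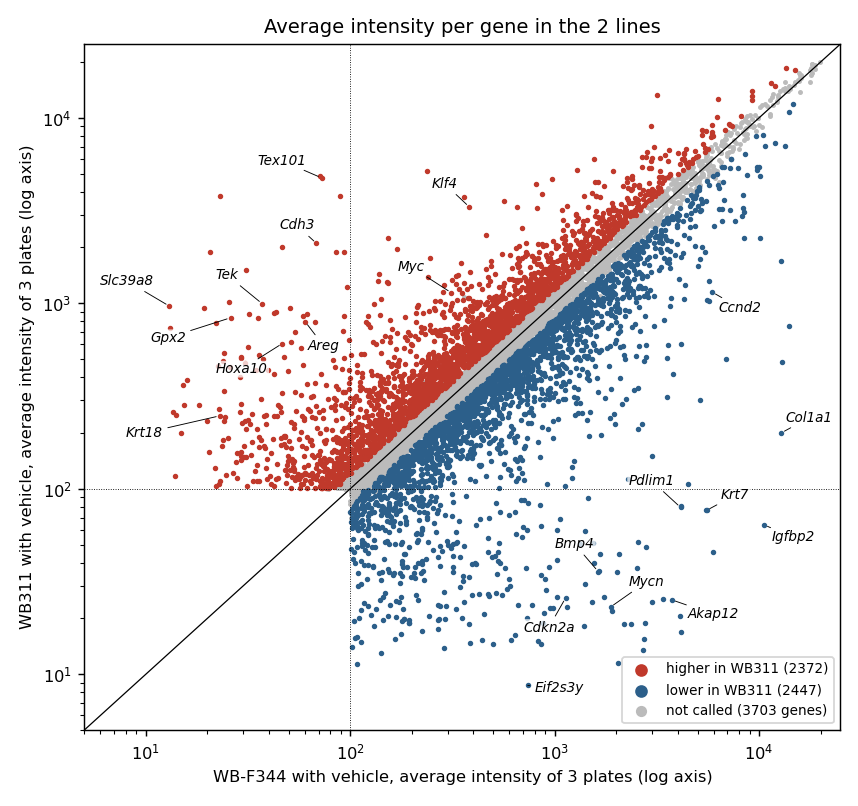
Average intensity of each tested gene in WB311 (vertical, log axis) against WB-F344 (horizontal, log axis), 3 plates each, with the line of equal intensity and dotted lines at 100. Red points are the 2372 genes called higher and blue points the 2447 called lower in WB311, and the blue cloud reaches farther from the line of equal intensity.

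Several of the genes most raised in WB311 were barely above the lowest signals in WB-F344. Every plate of both lines is given in the order of its number. Slc39a8, a zinc and manganese importer, had an intensity of 1026, 883 and 991 in WB311 plates, against 12.3, 12.7 and 14 in WB-F344 plates. Cdh3, the P-cadherin of stratified epithelia, had 2106, 2025 and 2179 in WB311 plates, against 70.8, 76.7 and 57.7 in WB-F344 plates. The 3 plates of each line lay within a narrow band for both genes. Both were picked from called genes whose plates did not overlap between the lines. Overlap was absent in 69.4% of all tested genes. Gpx2, a glutathione peroxidase of gut epithelium, averaged 835 ± 69.1 in WB311 and 26 ± 2.97 in WB-F344. Other genes of this size were Efhc2, Ctla2a, Cyp4b1, Ceacam1 and the meiotic recombination gene Rec114, with log2 differences of 4.81 to 5.82.

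Among genes well measured in both lines, the largest rise was that of Fxyd3, a regulator of the sodium pump, at 4761, 5444 and 5359.9 in WB311 plates, against 237, 223 and 253 in WB-F344 plates (log2 difference 4.45, SE 0.09, adjusted p 1.6e-11 by limma). Klf4, a zinc finger factor of differentiating epithelia, averaged 3308 ± 19.3 in WB311 and 382 ± 60.9 in WB-F344. Glul, which makes glutamine from glutamate, averaged 3561 ± 68.8 in WB311 and 568 ± 89.4 in WB-F344. Crip2, Tagln2, Ptbp3 and the collagen prolyl hydroxylase P4ha2 also rose, by 2.27 to 3.39 on the log2 scale.

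The falls included regulators of signaling at the membrane. Akap12, a scaffold that holds protein kinases A and C at the membrane, had 24.9, 24.9 and 25.8 in WB311 plates, against 3736, 3778 and 3729 in WB-F344 plates. Marcks, a kinase C substrate that binds actin and membrane lipid, had 17.2, 17.8 and 20.7 in WB311 plates, against 2354, 2342 and 2411 in WB-F344 plates. Both genes were thus at a steady high level in one line and far under 100 in the other. Cd200, an immunoglobulin family glycoprotein that restrains myeloid cells, averaged 13.5 ± 0.88 in WB311 and 2697 ± 321 in WB-F344. Cpe, which trims prohormones, the BMP-binding protein Bmper, the vasopressin receptor Avpr1a and the Rac GTPase regulator Arhgap24 fell, with log2 differences of -6.85 to -7.46. Below 100 the arrays measure little, so these sizes are rough. Falls measured above 200 in both lines included Dusp1, a phosphatase of MAP kinases, at 312 ± 25.7 in WB311 and 3530.2 ± 150.4 in WB-F344, and Selenom, a selenoprotein of the endoplasmic reticulum, at 222 ± 7.78 in WB311 and 1975 ± 36.4 in WB-F344. Set against a floor of 100, WB-F344 was higher by 37.5-fold for Akap12 and by 27-fold for Cd200.

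Promoter sequences were read for the genes with the largest changes, to show what these starts are made of. The RefSeq promoter table of GRCr8, with 250 bases before and 50 after each start, held a window for 7218 of the 8522 tested genes. The 60 windows of genes higher by over 8-fold had a median of 12.5 CpG dinucleotides, the 117 of genes lower by over 8-fold had 19, and the windows of all tested genes had 22. The TATA box letters TATAAA stood on either strand in 13.7% of the windows of genes lower by over 8-fold and in 11.7% of those higher, against 5.93% of all tested genes and 14.3% of all 27457 promoters of the table. On the strand of the gene and 20 to 40 bases before the start, where a TATA box works, the letters stood in 0 of the 60 windows of genes higher by over 8-fold, in 3 of the 117 of those lower and in 59 of the 7218 of all tested genes. The AP-1 motif (TGAGTCA) was in 10% of the windows of genes higher by over 8-fold, in 4.27% of those lower and in 3.21% of those of all tested genes, and the SP1 motif (GGGCGG) in 48.3% of those higher, 64.1% of those lower and 66.1% of all, on either strand. A motif found is a match of letters, not a known binding site. Agtr1a (minus strand, chr17:34435383-34435682) and Adamts1 (minus strand, chr11:38427335-38427634), which were among the 15 largest falls, are shown 5′ to 3′ with the letters TATAAA in capitals, which lie outside that range, at 45 and 70 bases before the start:
Agtr1a: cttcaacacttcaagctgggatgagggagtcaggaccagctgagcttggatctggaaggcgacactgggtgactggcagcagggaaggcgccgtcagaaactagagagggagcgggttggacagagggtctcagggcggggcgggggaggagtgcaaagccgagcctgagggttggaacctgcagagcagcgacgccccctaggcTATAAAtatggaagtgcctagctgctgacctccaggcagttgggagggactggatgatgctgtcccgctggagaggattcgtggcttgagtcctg
Adamts1: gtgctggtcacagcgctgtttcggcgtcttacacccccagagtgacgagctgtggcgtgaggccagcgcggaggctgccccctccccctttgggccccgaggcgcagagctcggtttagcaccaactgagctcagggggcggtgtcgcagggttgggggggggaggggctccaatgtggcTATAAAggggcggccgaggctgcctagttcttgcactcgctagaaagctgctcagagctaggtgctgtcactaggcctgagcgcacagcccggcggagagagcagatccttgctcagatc

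Most inhibitors of the cell cycle were lower in WB311. Cdkn2a, which encodes the kinase inhibitor p16INK4A and the p53 activator ARF, had 27.1, 26.9 and 23.4 in WB311 plates, against 1218, 1043 and 1131 in WB-F344 plates (log2 difference -5.46, SE 0.14, limma adjusted p 7.1e-11). Cdkn2b, the inhibitor encoded next to it, had 45.4, 45.6 and 34.4 in WB311 plates, against 162, 102 and 175 in WB-F344 plates. Neither gene had a WB311 plate that reached 100, and every plate of WB-F344 was above it. Of 7 tested inhibitors, 5 fell, 1 rose and Cdkn2c was not called, though it was called lower without plate 2 of WB-F344 (log2 difference -0.29) and without plate 3 of WB311 (-0.30). Cdkn1a, the p53-induced inhibitor, averaged 1016 ± 12.9 in WB311 and 2506 ± 366 in WB-F344 (log2 difference -1.29, SE 0.12). Cdkn1b, which encodes p27, fell by only 0.39 (SE 0.06, limma adjusted p 3.2e-04). The member that rose was Cdkn3, a phosphatase of cyclin-dependent kinases that peaks in dividing cells, at 2093 ± 60.7 in WB311 and 868 ± 63.5 in WB-F344.

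Cdkn2a was the inhibitor gene with the largest fall. A single promoter window was read for each gene, and whether this one serves p16INK4A or ARF was not tested. The window of Cdkn2a (minus strand, chr5:109107907-109108206) is shown with each of its 13 CpG dinucleotides in capitals:
Cdkn2a: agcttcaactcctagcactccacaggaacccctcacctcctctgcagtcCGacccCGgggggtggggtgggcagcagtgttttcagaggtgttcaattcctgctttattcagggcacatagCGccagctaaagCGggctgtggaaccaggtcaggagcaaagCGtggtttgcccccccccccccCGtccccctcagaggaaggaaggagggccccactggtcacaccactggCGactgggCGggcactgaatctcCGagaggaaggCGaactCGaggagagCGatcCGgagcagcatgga

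Of 20 tested genes of p53 and its targets, 11 fell and 6 rose. Ccng1, Phlda3 and the nuclease gene Aen, all induced by p53 in damaged cells, fell, with log2 differences of -1.05 to -1.44. The stress genes Ddit4 and Gadd45a rose by 2.54 and 2.25. Ddit4, which restrains mTOR, also belongs to the amino acid response below.

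The Myc family changed members. Mycn had 21, 30.5 and 17.6 in WB311 plates, against 1915, 1846 and 1869 in WB-F344 plates (log2 difference -6.39, SE 0.18, limma adjusted p 2.2e-10). Myc, the relative used by most dividing cells, had 1098, 1104 and 1219 in WB311 plates, against 306, 333 and 296 in WB-F344 plates (log2 difference 1.87, SE 0.06, limma adjusted p 9.9e-10). Each of these genes was separated between the lines on every plate, in opposite directions. The third family member, Mycl, rose to 139 ± 5.46 in WB311, against 71.7 ± 13 in WB-F344. Of the 10 tested genes of the network 2 rose and 5 fell, and the partner Max, Mxi1 and Mlx fell, with log2 differences of -0.35 to -0.60.

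**Figure D2:**
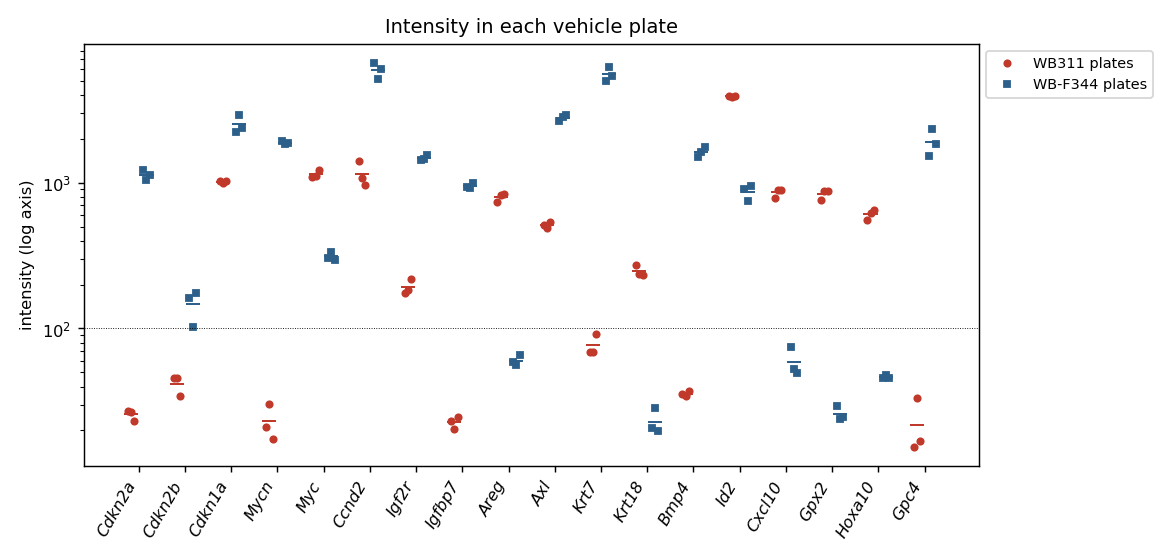
Intensity (log axis) of 18 genes in each vehicle plate, with WB311 plates as red circles and WB-F344 plates as blue squares beside them, bars for the mean of 3 plates and a dotted line at 100. The plates of the 2 lines do not overlap for any of these genes, which also held for 69.4% of all genes tested. Mycn and Myc differ in opposite directions.

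More drivers of the cycle rose than fell. Among 21 tested G1 cyclins, kinases and E2F factors, 9 rose and 3 fell, with a median log2 difference of 0.25 against 0.0026 over all genes tested. Both of the 2 members on chromosome 5, described below, rose. Of the 19 elsewhere 7 rose, with a median of 0.24. Ccne2, a cyclin that opens S phase, averaged 928 ± 9.63 in WB311 and 364 ± 64.1 in WB-F344. E2f2 rose to 157 ± 37.8 in WB311, against 29.1 ± 8.34 in WB-F344. The D-type cyclins did not follow: Ccnd2 had 1404, 1082 and 956 in WB311 plates, against 6586, 5138 and 5991 in WB-F344 plates, and Ccnd3 fell by 0.81. Ccne1, which the study also followed as a protein, fell by 0.66 (SE 0.08, limma adjusted p 3.8e-05).

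None of the 41 tested genes of DNA replication fell and 20 rose (48.8%), with a median log2 difference of 0.25. Without plate 2 of WB-F344, 23 rose and 1 fell. The single-strand binding subunit Rpa3 averaged 4277 ± 54.6 in WB311 and 1749.7 ± 63.2 in WB-F344, and the polymerase subunit Pole2 829 ± 32.8 in WB311 and 421 ± 13.3 in WB-F344. The sliding clamp Pcna rose by only 0.51 (SE 0.06). Of 46 tested genes of mitosis, 26 rose (56.5%) and 2 fell, with a median of 0.34. Among these, the kinase gene Melk rose by 1.41, the condensin subunit Smc2 by 1.67 and the spindle checkpoint gene Bub1 by 1.26. The lines divided at different rates, with a doubling time of 15.5 hr for WB311 and 42 hr for WB-F344, and the part of this in the 2 lists was not tested. On the arrays of rapamycin-exposed plates the medians were 0.84 for replication and 1.05 for mitosis.

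Of 37 windows of tested DNA replication genes 16 (43.2%) held an E2F motif, TTGGCGC or TTCGCGC on either strand, against 8.19% of all tested genes. Pole2 (minus strand, chr6:93435312-93435611) and Gmnn (plus strand, chr17:40729584-40729883), which encodes the licensing inhibitor geminin and rose by 0.73, are shown with the motif in capitals, at bases 10 and 40 from the start, in Pole2 on the opposite strand:
Pole2: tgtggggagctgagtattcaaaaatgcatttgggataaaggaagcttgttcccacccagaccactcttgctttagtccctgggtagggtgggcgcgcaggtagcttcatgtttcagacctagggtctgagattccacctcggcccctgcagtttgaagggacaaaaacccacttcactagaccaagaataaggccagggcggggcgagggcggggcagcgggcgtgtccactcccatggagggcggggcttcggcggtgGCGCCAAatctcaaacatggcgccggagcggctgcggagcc
Gmnn: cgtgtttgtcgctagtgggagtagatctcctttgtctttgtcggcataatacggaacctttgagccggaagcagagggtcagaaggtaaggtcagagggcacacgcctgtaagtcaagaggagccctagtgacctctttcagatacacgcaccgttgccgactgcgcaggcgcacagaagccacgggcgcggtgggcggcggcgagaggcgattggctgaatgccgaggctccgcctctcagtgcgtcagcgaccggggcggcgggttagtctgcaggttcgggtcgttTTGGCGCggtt

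Long stretches of neighbouring genes on 2 chromosomes were higher in WB311. On chromosome 5, 323 of 550 tested genes (58.7%) were higher in WB311 and 72 (13.1%) lower, with a median log2 difference of 0.46. Over the 7945 genes on all other chromosomes 25.7% were higher and 29.8% lower, with a median of -0.02. The shift was in every plate: relative to the WB-F344 mean, the median chromosome 5 gene stood at 0.46, 0.42 and 0.48 in the WB311 plates and at -0.03, 0.07 and -0.03 in the WB-F344 plates. Without plate 2 of WB-F344 the median was 0.49. No other chromosome had a median beyond -0.12 or 0.17 apart from the Y, which had 2 tested genes, and chromosome 18 was the next, with 40.8% of 201 genes higher and 21.4% lower.

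The rise was not spread evenly along chromosome 5. Tested genes were placed in their order on the rat assembly GRCr8 and divided into runs of about 25 neighbours. After the first run, 8 runs in a row, 200 genes that begin with Lyn and end with Tceanc2, had a median difference of 0.70, with 147 genes higher and 23 lower. The next 125 genes, as far as S100pbp, had a median of 0.09, with 37 higher and 28 lower. A further 175 genes, the first of which is Yars1, had a median of 0.64, with 127 higher and 9 lower. On chromosome 4, 177 genes that run from Tomm7 to Eif2ak3 had a median of 0.46, with 115 higher and 28 lower, and the 250 genes after them had a median of -0.06. Of 317 runs on chromosomes other than 5, 24 had a median of at least 0.25 and 15 of -0.25 or less. Of the 24, 7 were the neighbouring runs of chromosome 4, and chromosomes 3, 9 and 18 each had a pair of neighbouring runs at this level, with medians of 0.26 and 0.42, 0.32 and 0.45, and 0.41 and 0.32. In the arrays of rapamycin-exposed plates, which share no plate with these, the median was 0.53 on chromosome 5 and 0.54 for the stretch on chromosome 4. The runs were drawn after the chromosome totals were known and carry no test, and DNA was not measured on these samples.

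**Figure D3:**
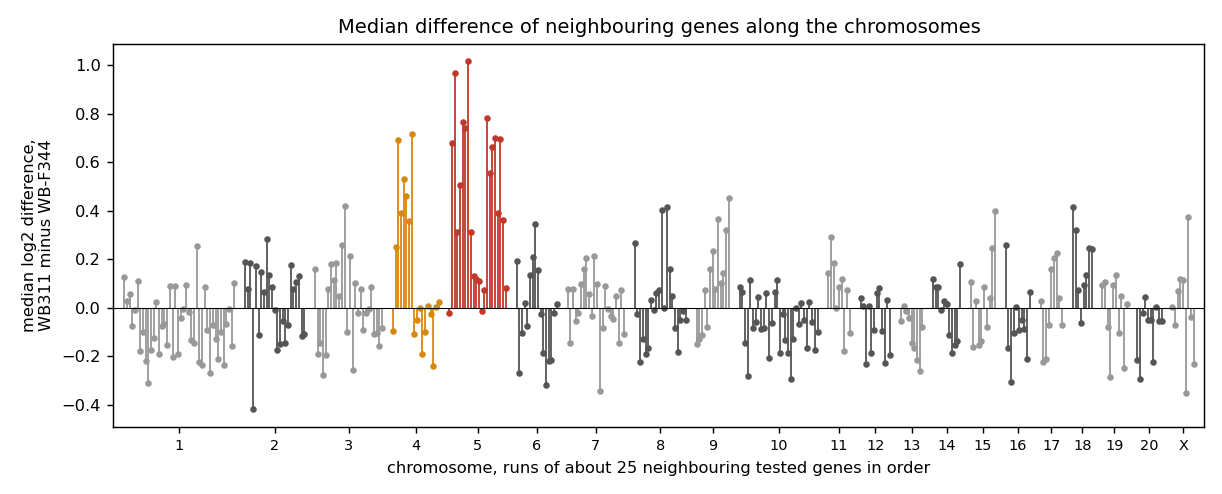
Median log2 difference, WB311 minus WB-F344 with vehicle, in runs of about 25 neighbouring tested genes along each chromosome, with chromosome 4 in orange and chromosome 5 in red. The highest runs lie in the 2 raised stretches of chromosome 5 and in the first part of chromosome 4.

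Cdkn2a and Cdkn2b lay inside the first raised stretch of chromosome 5. Their 8 nearest tested neighbours on one side were all higher in WB311, and the nearest of these, Mtap, an enzyme of methionine salvage, had 2501, 2528 and 2578 in WB311 plates, against 664, 805 and 605 in WB-F344 plates. On the other side Caap1, the nearest gene with a tested brightest probe set, rose by 0.49 (SE 0.07), the next gene was not called and Tek, the angiopoietin receptor, had 1072, 973 and 939.6 in WB311 plates, against 45.4, 26.8 and 39.1 in WB-F344 plates. Elavl2, which lies between Cdkn2b and Caap1 and whose brightest probe set was not tested, had 2 other probe sets that rose, by 2.61 and 2.67. The 2 inhibitor genes thus differed in direction from the called genes as far as Plin2 on one side and Jun on the other, while Fggy, the next tested gene after Jun, was lower at 48.5 ± 4.44 in WB311 and 127 ± 25.8 in WB-F344. Caap1, Elavl2, Jun and Fggy are named for their position.

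**Figure D4:**
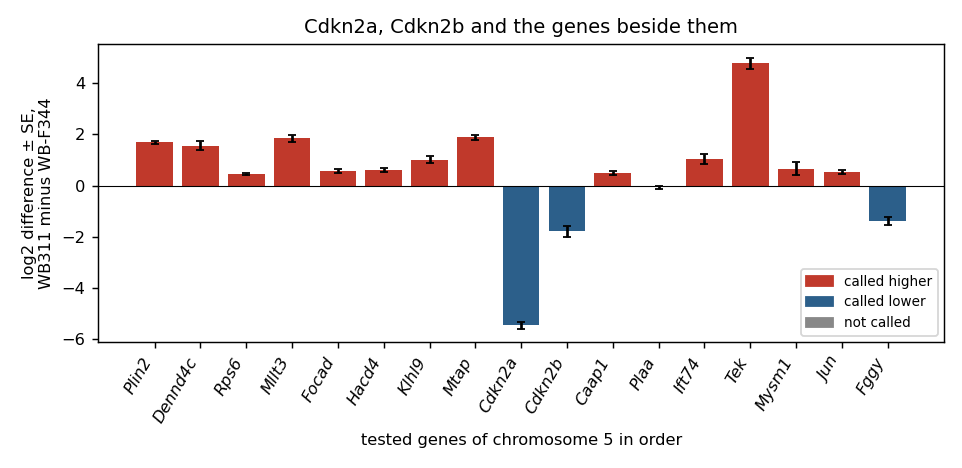
Log2 difference, WB311 minus WB-F344 with vehicle, with its SE, for Cdkn2a and the tested genes nearest to it, in their order on chromosome 5. Cdkn2a, Cdkn2b and, at the right end, Fggy are the genes called lower.

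Most of the ribosomal protein genes that rose lay on chromosome 5. Of 39 tested cytosolic ribosomal protein genes 5 rose and none fell, and Rpl22, Rpl7, Rps6 and Rpl11, which were 4 of the 5, were the only tested ribosomal protein genes on chromosome 5. Rpl22 had 12395, 12599 and 12832 in WB311 plates, against 6349.7, 6349 and 6211 in WB-F344 plates (log2 difference 1.0, SE 0.05). Rps6, whose phosphorylation the study used to read mTOR activity, rose by 0.46 (SE 0.05, limma adjusted p 1.6e-05). Elsewhere in the genome 1 of 33 ribosomal protein genes with a known chromosome rose. Of 56 tested genes of ribosome biogenesis 7 rose and 9 fell (12 rose without plate 2 of WB-F344). Of these genes 2 of 6 on chromosome 5 rose, Mrto4 and Polr1e, which were the 2 rises of smallest p, and 5 of 50 elsewhere.

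The X chromosome held many extreme changes of both signs. Of 236 tested genes 8.47% were over 8-fold different, against 2.63% of genes over all chromosomes, 8 higher and 12 lower, while the median log2 difference was -0.02. The homeobox gene Rhox5 and the EF-hand gene Efhc2 were among the rises, with Pof1b, Rnf128, Dock11, Ldoc1, Spin4 and an unnamed gene, LOC102550366. The 12 falls included 2 glypicans, cell surface proteoglycans that bind growth factors: Gpc4 had 15.4, 33.4 and 17 in WB311 plates, against 1531, 2336 and 1847 in WB-F344 plates, and Gpc3 fell by 5.31 (SE 0.15). The LIM protein gene Fhl1, the actin-sequestering thymosin gene Tmsb4x, the ferroxidase gene Heph and the armadillo gene Armcx2 fell, with log2 differences of -5.63 to -6.25. Armcx4, Bcor, Mageh1, Bex4, Tmem47 and Klhl13 completed the falls. These names were read off after their values were seen, apart from those in the lists.

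On the Y chromosome, which these cells of male origin can carry, the translation factor gene Eif2s3y had 8.67, 8.53 and 8.91 in WB311 plates, against 798, 745 and 672 in WB-F344 plates. Uty was not called, with 329, 295 and 315 in WB311 plates, against 270.1, 349 and 224 in WB-F344 plates. Sry and Tspy1 were under 100 in both lines.

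Growth factors and their receptors shifted in both directions. Of 14 tested genes of the insulin-like growth factor axis 8 fell and 5 rose, with a median log2 difference of -2.14. Igfbp2, a binding protein of the circulating factors and one of the strongest signals of WB-F344, had 68.5, 58.4 and 64.7 in WB311 plates, against 11232, 9322 and 11219 in WB-F344 plates. Igfbp7 averaged 22.7 ± 2.22 in WB311 and 951 ± 44.5 in WB-F344, and the protease Htra1, which cleaves such binding proteins, was at 25.5 ± 3.97 in WB311 and 3398 ± 162 in WB-F344. The clearance receptor Igf2r, measured above 100 in both lines, had 176, 185 and 219.7 in WB311 plates, against 1430.1, 1455 and 1553 in WB-F344 plates (log2 difference -2.94, SE 0.09). In 8 of the 13 called genes one line was under 100, and over the 6 genes of at least 100 in both lines the median was 0.079.

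Imprinted genes, which are read from 1 parental copy, moved without a common direction, with 7 falls and 3 rises among 13 tested. Igf2r is one of the falls and Mest, at 25 ± 3.92 in WB311 and 139.6 ± 57.2 in WB-F344, another. The largest fall of the list, that of a gene not named here, had a log2 difference of -7.04. Plagl1, a zinc finger factor of the imprinted set, rose to 3320.3 ± 42.1 in WB311, against 1461 ± 197 in WB-F344. For the adaptor gene Grb10 the probe sets disagreed: 2 of its 3 called probe sets fell, with log2 differences of -3.6 and -2.44, and the third rose by 0.62.

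Of 34 tested receptor tyrosine kinases and ligands 17 fell and 10 rose. The EGF receptor ligand Areg had 733, 820.0 and 830.4 in WB311 plates, against 58.7, 56.3 and 65.9 in WB-F344 plates, while Hbegf, another ligand of that receptor, fell to 340.3 ± 7.47 in WB311, against 1128 ± 28.7 in WB-F344. The receptor genes Axl and Ddr1, the second a collagen receptor, fell, with log2 differences of -2.44 (SE 0.07) and -1.56 (SE 0.09). Among 10 tested vasoactive peptides and receptors 5 fell and 3 rose. Adm, adrenomedullin, had 29.8, 27.2 and 28.4 in WB311 plates, against 1129.5, 654 and 952 in WB-F344 plates, and Ramp3, part of its receptor, averaged 21.1 ± 1.12 in WB311 and 453 ± 76.3 in WB-F344. The natriuretic peptide gene Nppb and the endothelin-converting enzyme Ece1 rose by 2.57 and 1.52. Both of the 2 tested vasoactive genes on chromosome 5 rose. Of the 8 elsewhere 1 rose, with a median of -2.15.

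Matrix, adhesion and actin genes were mostly lower in WB311. Of 25 tested collagens and processing enzymes 16 fell (64%) and 3 rose, with a median of -1.07. Col4a1 of basement membranes averaged 603 ± 18.5 in WB311 and 4167 ± 343 in WB-F344, the crosslinking enzyme Lox 2259.7 ± 169 in WB311 and 8471 ± 229 in WB-F344, and Loxl3 fell by 2.28. Among 37 tested non-collagen matrix proteins 23 fell and 8 rose, with a median of -0.97. Ecm1 had 262, 241 and 253 in WB311 plates, against 1941, 1980.0 and 1900.0 in WB-F344 plates. Ltbp2, a microfibril protein, and Fbln2, a fibulin, fell, with log2 differences of -5.37 and -3.76.

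Markers of mesenchymal and stellate cells, some of which are collagens themselves, moved with these lists. Of 20 markers measured 9 were tested, of which 8 fell and none rose, and their summed intensity per plate was 17180 to 17580 in WB311 and 64882 to 74360 in WB-F344. The stellate and fibroblast genes Dcn, Lum, Thy1, Pdgfra, Pdgfrb, Fap and Lrat were under 100 in both lines, with Thy1 at 31.6, 30.3 and 25.2 in WB311 plates, against 28.4, 23.7 and 27.1 in WB-F344 plates. A lower intensity can come from fewer cells that make a transcript or from less of it per cell, and these cannot be told apart here.

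Of 14 tested integrins and their adaptors 9 fell and 1 rose. Itga1, the collagen-binding subunit, had 69.9, 64.9 and 71 in WB311 plates, against 1003, 1143 and 1045 in WB-F344 plates. Itgb5, Itga6, the focal adhesion kinase gene Ptk2 and the integrin-linked kinase gene Ilk fell, with log2 differences of -0.85 to -2.40. Itgb4, the subunit of hemidesmosomes, was the member that rose, to 152 ± 18 in WB311, against 64.7 ± 9.03 in WB-F344. Of 17 tested matrix proteases and inhibitors 7 fell and 5 rose, with a median of 0.21, so this list was not mostly lower. Among the falls Mmp14, which cleaves collagen at the cell surface, had 60.7, 61 and 68.3 in WB311 plates, against 899, 823 and 842 in WB-F344 plates.

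Of 35 tested actin and contractile genes 25 fell (71.4%) and 6 rose, with a median of -0.76. Pdlim1, which binds alpha-actinin, had 73.9, 83.6 and 80.4 in WB311 plates, against 4094, 4213 and 4094 in WB-F344 plates. Ccn1 and Ccn2, secreted targets of the actin-sensing factors SRF and YAP, fell, with log2 differences of -4.10 (SE 0.09) and -2.92 (SE 0.08). Tropomyosin 1 (Tpm1) has probe sets on both sides: 2 of its called probe sets fell, with log2 differences of -1.96 and -0.98, and 2 rose, by 0.46 and 0.70. Over all genes with 2 or more called probe sets, 941 of 966 had them in 1 direction. Of 2120 genes with 2 or more tested probe sets, called or not, 78.0% had the same sign in all.

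The CArG box, which binds SRF, was in 4 of 23 windows (17.4%) of the lowered actin list, against 1.34% of all tested genes. These were Cnn2, Fhl1, Fhl2 and Srf itself, with log2 differences of -0.62 to -5.86. Cnn2, Fhl2 and Srf were named after their values were seen. The CArG box was not counted in the actin genes that rose or were not called. Whether its share differs between lowered and other actin genes was therefore not tested. The CArG box is in capitals in the windows of Fhl1 (plus strand, chrX:139638246-139638545) and Cnn2 (minus strand, chr7:10370263-10370562), at 102 and 71 bases before the start:
Fhl1: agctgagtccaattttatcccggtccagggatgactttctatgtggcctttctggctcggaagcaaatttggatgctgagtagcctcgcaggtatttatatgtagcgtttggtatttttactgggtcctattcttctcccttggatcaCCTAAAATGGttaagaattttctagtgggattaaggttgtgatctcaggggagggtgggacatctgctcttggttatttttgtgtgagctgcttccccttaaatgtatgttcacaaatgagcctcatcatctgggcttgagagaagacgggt
Cnn2: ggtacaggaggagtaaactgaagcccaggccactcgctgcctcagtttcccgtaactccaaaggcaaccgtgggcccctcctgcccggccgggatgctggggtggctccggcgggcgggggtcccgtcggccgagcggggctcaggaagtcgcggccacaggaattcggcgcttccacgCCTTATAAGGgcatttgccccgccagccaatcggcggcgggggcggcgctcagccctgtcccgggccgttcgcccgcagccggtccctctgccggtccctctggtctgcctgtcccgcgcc

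Epithelial junction genes and keratins moved in both directions. Of 19 tested junction genes 7 rose and 7 fell. F11r, a tight junction adhesion molecule, had 1016, 826 and 977 in WB311 plates, against 52, 53.7 and 47.1 in WB-F344 plates, and the desmosome genes Dsp and Pkp1 rose by 1.25 and 2.16. The tight junction gene Ocln had 219, 248 and 256 in WB311 plates, against 1882, 1803 and 1939 in WB-F344 plates, and the connexin Gjb2 fell by 2.65. The classical cadherin Cdh1 was under 100 in both lines. Cdh2, the N-cadherin, is not among the 19, since its brightest probe set averaged 91.3 in WB311 and 99.8 in WB-F344, but its 2 tested probe sets, which averaged 13.1 and 19.8 in WB311 and 201 and 207 in WB-F344, both fell, with log2 differences of -3.88 and -3.39. All 5 tested keratins were called. Krt7, of bile duct and other simple epithelia, had 68.6, 69 and 91.9 in WB311 plates, against 5005, 6248 and 5348 in WB-F344 plates, while Krt18 had 271, 237 and 234 in WB311 plates, against 20.7, 28.5 and 19.8 in WB-F344 plates. Krt8 rose by 1.03 and Krt19 by 2.26, the second from values near 100 (109.9 in WB311 and 23.1 in WB-F344), and Krt14, of basal epithelia, fell by 2.88. Of the 6 tested factors linked to epithelial-mesenchymal transition, Klf4 and Zeb2 rose, Tcf4 fell, and Zeb1, Snai1 and Foxc2 were not called. The rise of Zeb2 was lost without WB-F344 plate 1 or 3 or WB311 plate 1, which left 1 rise in the list, and Zeb1 was called lower without WB-F344 plate 1.

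**Figure D5:**
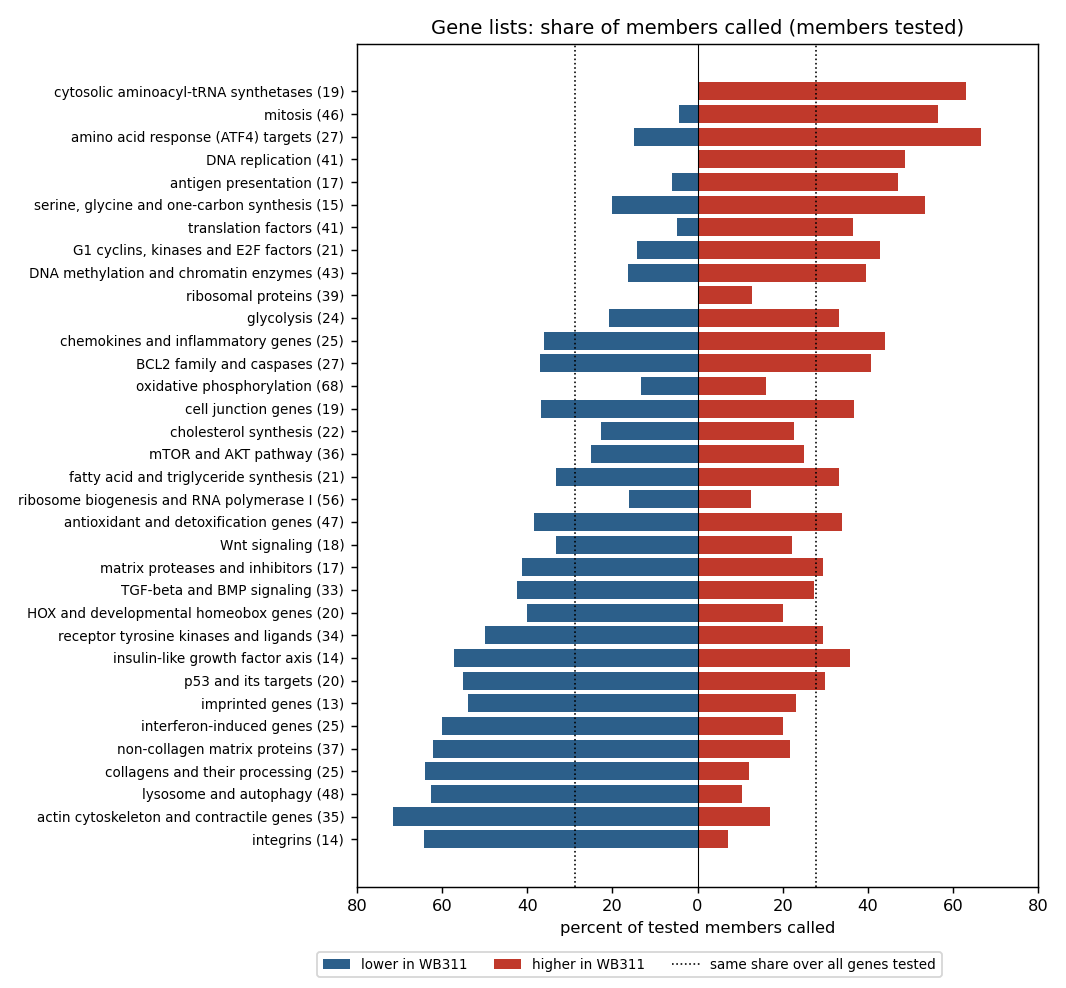
Share of tested members called higher (right, red) and lower (left, blue) in WB311 for 34 gene lists with at least 13 tested members, whose number stands in parentheses. Dotted lines mark the shares over all genes tested, 27.8% and 28.7%. Integrin, actin, lysosome and collagen lists reach farthest left and aminoacyl-tRNA synthetase and ATF4 target lists farthest right.

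Several ligands of the TGF-beta superfamily were lower in WB311. Of 33 tested genes of TGF-beta and BMP signaling 14 fell and 9 rose. Bmp4 had 35.5, 34.7 and 37.2 in WB311 plates, against 1509.8, 1625 and 1763 in WB-F344 plates, and the activin antagonist Fst averaged 59.3 ± 11.3 in WB311 and 1407 ± 116 in WB-F344. Bmp2 and Tgfb3 fell, with log2 differences of -3.85 and -2.14. The inhibitors of differentiation split, with Id2 at 3894 ± 46.2 in WB311 and 864 ± 106 in WB-F344 and Id4 at 25.2 ± 1.75 in WB311 and 214 ± 22.1 in WB-F344. In the Wnt pathway, of 18 tested genes 6 fell and 4 rose: the antagonist Sfrp1 and the agonist Rspo1 fell, with log2 differences of -4.24 and -1.88, and the R-spondin receptor Lgr4 and the nuclear factor Tcf7 rose by 2.28 and 2.03. Tcf7 was weak, with means of 114 in WB311 and 27.9 in WB-F344.

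Immune genes split by class. Of 25 tested interferon-induced genes 15 fell and 5 rose, with a median of -0.30. The GTPase Gbp2 had 70.5, 46.9 and 62.6 in WB311 plates, against 1017, 988 and 1079.9 in WB-F344 plates, and Ifi27 and Ifitm3 fell, with log2 differences of -1.48 and -1.88. Bst2, which tethers enveloped viruses, rose to 699 ± 134 in WB311, against 54 ± 3.59 in WB-F344. Of 17 tested genes of antigen presentation, 8 rose and 1 fell, or 2 without plate 2 of WB-F344, with a median of 0.22. The immunoproteasome subunits Psmb8 and Psmb9 rose by 2.19 and 1.12, and the third subunit, Psmb10, fell by 1.21. B2m, the light chain of class I molecules, averaged 5857 ± 153 in WB311 and 3582 ± 325 in WB-F344. Genes of the rat RT1 complex are near copies of each other, so the rises of RT1-DMb and RT1-N3, of 1.81 and 1.06, may share signal with their relatives.

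Of 25 tested chemokines and inflammatory genes 11 rose and 9 fell. Cxcl10 had 790.0, 885 and 896 in WB311 plates, against 74.4, 52.7 and 49.6 in WB-F344 plates, and the neutrophil attractant Cxcl1 averaged 4416 ± 318 in WB311 and 815 ± 83.8 in WB-F344. Ccl20, which attracts dendritic cells and lymphocytes, rose to 1022 ± 36.6 in WB311, against 25.7 ± 3.48 in WB-F344. The monocyte attractant Ccl7 went the other way, with 33.3, 35 and 29.5 in WB311 plates, against 661, 561 and 579 in WB-F344 plates. Il1rl1, the interleukin 33 receptor, and the complement protease C1s fell, with log2 differences of -6.97 and -4.12. The leukocyte adhesion gene Cd48 was at 14.7, 15.1 and 13.6 in WB311 plates, against 857, 873 and 836 in WB-F344 plates.

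Genes that answer amino acid shortage mostly rose. Of 27 tested ATF4 targets 18 rose (66.7%) and 4 fell, with a median of 0.62. Asns, asparagine synthetase, had 1353, 1273 and 1326 in WB311 plates, against 468, 496 and 493 in WB-F344 plates. The pseudokinase Trib3 rose by 2.19 (SE 0.14), the stress factor Nupr1 by 2.86 (SE 0.14) and the arginine and lysine transporter Slc7a3 by 2.21 (SE 0.09), the last from means of only 106 in WB311 and 22.9 in WB-F344. Of 15 tested genes of serine, glycine and one-carbon synthesis 8 rose and 3 fell. Psat1, of the serine pathway, had 8888, 9005 and 9162 in WB311 plates, against 2965, 2973 and 2954 in WB-F344 plates, and Psph, Phgdh, Shmt2 and Mthfd2 rose by 0.80 to 1.5. Gldc, which breaks glycine down, fell to 50.5 ± 11 in WB311, against 317 ± 38.2 in WB-F344. None of 19 tested cytosolic aminoacyl-tRNA synthetases fell and 12 rose (63.2%), with Yars1, on chromosome 5, at 3178 ± 37.3 in WB311 and 1088 ± 56.1 in WB-F344 and Gars1 at 6135 ± 49.3 in WB311 and 2803 ± 271 in WB-F344.

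The core of the amino acid response element, TGATGCA or TGATGAA on either strand, was sought in the windows of ATF4 targets that rose. Of these 15 windows 3 held it, those of Nupr1, Chac1 and Slc7a1, against 3.42% of all tested genes. The core was not counted in ATF4 targets that did not rise, nor over the synthetases. It is in capitals in the windows of Nupr1 (minus strand, chr1:190645852-190646151) and of the synthetase gene Yars1 (plus strand, chr5:146819913-146820212), at 54 bases before the start of Nupr1, on the opposite strand, and at base 39 from that of Yars1:
Nupr1: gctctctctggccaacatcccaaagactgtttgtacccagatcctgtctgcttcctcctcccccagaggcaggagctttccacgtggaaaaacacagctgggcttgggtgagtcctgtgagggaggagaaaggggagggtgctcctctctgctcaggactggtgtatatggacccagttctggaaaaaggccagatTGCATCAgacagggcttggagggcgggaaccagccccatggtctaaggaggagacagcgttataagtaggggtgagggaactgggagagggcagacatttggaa
Yars1: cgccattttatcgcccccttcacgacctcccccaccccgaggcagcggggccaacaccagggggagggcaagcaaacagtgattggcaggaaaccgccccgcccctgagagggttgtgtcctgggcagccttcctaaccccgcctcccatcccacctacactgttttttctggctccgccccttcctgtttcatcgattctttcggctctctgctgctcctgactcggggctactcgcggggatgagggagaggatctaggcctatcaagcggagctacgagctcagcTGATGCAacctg

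Of 41 tested translation factors 15 rose and 2 fell. All 3 on chromosome 5 rose, and 12 of 38 elsewhere. Eif3i rose by 1.0 and Eif2b2, a subunit of the exchange factor eIF2B, fell by 1.01. Eif4ebp1, the repressor of cap-dependent translation that the study followed as a phosphoprotein, averaged 3168 ± 91.1 in WB311 and 1931 ± 312 in WB-F344. The mTOR and AKT pathway had 9 rises and 9 falls among 36 tested genes, a share of 25% each way. On chromosome 5, 4 of 7 of these genes rose, and elsewhere 5 of 29, with a median of -0.096. Deptor, an inhibitory partner of mTOR, was one of the falls, with 283, 320.3 and 334 in WB311 plates, against 689, 897 and 787 in WB-F344 plates.

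Lysosome genes were mostly lower in WB311. Of 48 tested lysosome and autophagy genes 30 fell (62.5%) and 5 rose, or 3 without plate 3 of WB311, with a median of -0.43. The protease Ctsd had 558, 514 and 593 in WB311 plates, against 1472, 1497 and 1490.4 in WB-F344 plates. The autophagy genes Wipi1 and Gabarapl1 fell, with log2 differences of -2.07 and -1.82, and the proton pump subunits Atp6v0d1 and Atp6v1h likewise, with -1.31 and -1.09.

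Few genes of oxidative phosphorylation were called. Of 68 tested, 11 rose and 9 fell, with a median of -0.04. Among 24 tested glycolysis genes 8 rose and 5 fell, and Pfkp, a phosphofructokinase of growing cells, averaged 426 ± 24.1 in WB311 and 107 ± 7.21 in WB-F344, while the lactate dehydrogenase gene Ldhb fell by 1.69. None of 9 tested genes of the pentose phosphate pathway fell and 4 rose, of which Pgd, on chromosome 5, was the largest at 1.2 (SE 0.05). Cholesterol synthesis had 5 rises and 5 falls among 22 tested genes. Of 21 genes of fatty acid and triglyceride synthesis 7 rose and 7 fell, among them the desaturase Scd2, at 2239 ± 211 in WB311 and 153 ± 47 in WB-F344, and the lipid carrier Fabp5, at 89.1 ± 6.70 in WB311 and 1464 ± 62.9 in WB-F344. Antioxidant and detoxification genes gave 16 rises and 18 falls among 47. Mgst1 had 5291, 5129 and 5351 in WB311 plates, against 1310.1, 1223 and 1334 in WB-F344 plates, and its relative Mgst2 had 517, 483 and 520.5 in WB311 plates, against 3529.8, 3684 and 3458 in WB-F344 plates. Heme oxygenase (Hmox1) and Gsta4, which clears lipid peroxidation products, fell, with log2 differences of -2.55 and -3.20, and Cyp1a1, a target of the dioxin receptor, rose by 2.84.

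Genes of cell death were divided, with 11 rises and 10 falls among 27 tested BCL2 family members and caspases. Casp4, the inflammatory caspase, had 328, 332 and 331 in WB311 plates, against 50.0, 40.8 and 48.8 in WB-F344 plates, and the BCL2 relative Bok rose by 1.32. Casp8 and its adaptor Fadd fell, with log2 differences of -0.62 and -0.91.

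A few genes of germ cells were higher in WB311. Of 18 measured germline and testis genes 14 were under 100 in both lines. Tex101, a surface protein of male germ cells, had 4551, 5122 and 4555 in WB311 plates, against 73.5, 68.4 and 75.5 in WB-F344 plates, and Rhox5 and Rpl39l1 also rose, by 6.10 and 7.4. Tdrd7 was not called. Among 20 tested homeobox genes 4 rose, or 7 without plate 2 of WB-F344, and 8 fell. Hoxa10 had 551, 618 and 651 in WB311 plates, against 45.8, 47.9 and 45.9 in WB-F344 plates, while Hoxb2, Hoxb4 and Hoxb6, of the Hoxb cluster, fell, with log2 differences of -0.92 to -2.41. Prrx2, a homeobox gene of mesenchyme, averaged 114 ± 16.5 in WB311 and 1210.2 ± 78.6 in WB-F344. Of 43 tested enzymes of DNA methylation and chromatin 17 rose and 7 fell. The remodeling ATPase Smarca2 fell by 1.90, and the polycomb methyltransferase Ezh2 and the demethylase Kdm1a rose by 0.86 and 1.13.

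The window of Tex101 (minus strand, chr1:89387291-89387590), whose WB-F344 plates were all under 100, holds 11 CpG dinucleotides, in capitals:
Tex101: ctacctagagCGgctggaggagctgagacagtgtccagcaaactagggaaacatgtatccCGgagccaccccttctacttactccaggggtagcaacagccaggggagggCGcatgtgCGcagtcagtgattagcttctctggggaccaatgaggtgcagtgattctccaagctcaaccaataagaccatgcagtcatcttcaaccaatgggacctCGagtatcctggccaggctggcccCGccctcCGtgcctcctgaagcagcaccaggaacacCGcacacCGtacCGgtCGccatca

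Most of these calls were also made between the rapamycin-exposed plates. Of the 7699 vehicle calls 6343 were called there too, 6299 of them in the same direction. Over all 13949 probe sets tested between those plates, 8208 (58.8%) were called. The difference between the lines itself changed with the drug for 1484 probe sets (10.7%), of which 1066 were among the vehicle calls. The widest changes were in Esm1, a proteoglycan of endothelium, whose log2 difference was -5.29 with vehicle and -7.81 with rapamycin, and in the collagen Col12a1, at -2.82 with vehicle and -0.60 with rapamycin.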

How the data were processed

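Total RNA of 12 plates was hybridized to Affymetrix rat arrays, 3 arrays for each line with vehicle or rapamycin. The deposited values are linear intensities, 1 per probe set, which the authors made from the scanned arrays by Robust Multiarray Average (background correction, quantile normalization and summary over probes). They were used on the log2 scale without further normalization. Depth has no meaning for arrays, and their number limits the precision. Of 31099 probe sets, 57 controls were left out, and 20826 of the other 31042 carry 1 gene symbol in the platform annotation, 436 several and 9780 none. RefSeq (GRCr8) held 20758 of those with 1 symbol, which gave chromosomes and gene order. The array files name no genome build. A gene was represented by the probe set with the highest mean over all arrays, and for 7 of the 5695 genes whose representative was too dim to test another probe set was tested and called.

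A linear model with 4 groups was fitted to the 12 arrays with limma 3.58.1 (R 4.3.3), so that the rapamycin arrays contribute to the spread. Probe sets whose mean reached 100 in either vehicle group were tested, and a call needed a Benjamini-Hochberg adjusted p under 0.05 over all of them and a fold change of at least 1.2. The script was tested on simulated data. Genes named were drawn from a set selected by rule, and not every gene of that set is named. The set holds the 15 largest rises and falls and the 10 largest with at least 200 in both lines. It also holds the 6 best supported members of every list by p, defining markers and genes that the study measured as proteins. The 5 extremes of the drug-dependent difference complete it. Other names were chosen after their values were seen, or for their place on a chromosome. The members and the gene lists were chosen with earlier results of these data known. The runs of neighbouring genes were laid out after the chromosome shares were seen. Alternatives covered the test, filters, normalization, weights and each left-out plate. Python 3.11.15, pandas 2.3.3, numpy 2.4.6 and matplotlib 3.10.9 were used for counts and plots.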

Additional observations from a re-analysis of the deposited data

Results flagged for a closer look

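For 68 of the 223 tested genes named in the text the difference between the lines was not the same with vehicle and with rapamycin, by limma's test of the interaction with a Benjamini-Hochberg adjusted p under 0.05 over all tested probe sets and a change of at least 1.2-fold. Over all tested probe sets 10.7% were called by that test. Some of the named genes were chosen for an extreme value of this same drug-dependent difference, so the shares cannot be compared. Each value below is the log2 difference, WB311 minus WB-F344, with vehicle minus the same with rapamycin.

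The sign differed between vehicle and rapamycin for 4 genes. Their values were -1.40 for Deptor, -1.03 for Eif2b2, -0.67 for Cdkn2c and 0.53 for Tdrd7. With rapamycin the log2 difference between the lines was only 0.063 for Deptor and 0.018 for Eif2b2. It was 0.41 for Cdkn2c and -0.41 for Tdrd7. Of these, Deptor and Eif2b2 were lower in WB311 with vehicle, and Cdkn2c and Tdrd7 were not called between the lines with vehicle.

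Genes that were higher in WB311, and by more with rapamycin, had values of -1.20 for Cxcl1, -1.11 for Id2, -1.02 for Melk, -0.96 for Plagl1, -0.88 for Fxyd3, -0.78 for Gmnn, -0.77 for P4ha2 and -0.76 for LOC102550366. Further such genes had -0.68 for Cdh3, -0.68 for Dsp, -0.64 for Cdkn3, -0.61 for Lgr4, -0.60 for Pole2, -0.59 for Mthfd2, -0.57 for Psat1 and -0.56 for Cyp1a1. The same held at -0.52 for Jun, -0.50 for Ezh2, -0.48 for Chac1, -0.46 for Phgdh, -0.38 for Tpm1, -0.33 for Psph and -0.33 for Pcna.

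Genes that were lower in WB311, and by more with rapamycin, had values of 0.28 for Ifi27, 0.38 for Wipi1, 0.39 for Selenom, 0.40 for Casp8, 0.42 for Cd48, 0.44 for Ptk2, 0.47 for Cnn2 and 0.47 for Ctsd. To these came 0.55 for Fhl2, 0.64 for Ecm1, 0.68 for Mgst2, 0.71 for Igfbp7, 0.73 for Itgb5, 0.73 for Adamts1, 0.97 for Cpe and 1.002 for Ccnd2. The others of this kind had 1.07 for Cdkn2a, 1.31 for Cdkn2b, 2.07 for Ccl7 and 2.52 for Esm1.

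Genes that were higher in WB311 but by less with rapamycin had values of 0.34 for B2m, 0.51 for Ddit4, 0.68 for Slc7a3, 0.71 for Pfkp, 0.94 for Myc and 1.64 for Cxcl10. Genes that were lower in WB311 but by less with rapamycin had -2.22 for Col12a1, -2.03 for Krt14, -1.58 for Gjb2, -1.10 for Tgfb3, -1.07 for Krt7, -0.78 for Ccn2, -0.73 for Prrx2 and -0.71 for Igf2r. Others were -0.64 for Fadd, -0.63 for Ccn1, -0.62 for Marcks, -0.49 for Ccne1, -0.44 for Lox, -0.35 for Psmb10 and -0.26 for Ccnd3.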

How the results depend on the processing

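The counts of called probe sets, 7699 with 3830 higher and 3869 lower, stayed within 1.5 times under each alternative but the requirement of a 2-fold change, which by its construction left 2214, of which 1001 were higher and 1213 lower. Leaving out 1 vehicle array at a time gave 7198 to 7931 calls, 3475 to 4189 higher and 3537 to 3997 lower, with the highest total and the most higher calls without WB-F344 plate 2, which also had the lowest array weight (0.116). The methods' t-test called 6700 with equal and 5662 with unequal variances. The median log2 difference of chromosome 5 genes, 0.46, was 0.51 for genes of at least 200 in 1 line and 0.39 with values floored at 100, and 0.44 to 0.49 with 1 array left out. Restricted to genes of at least 100 in both lines, list medians turned to 0.079 for the insulin-like growth factor axis (6 genes), 0.14 for vasoactive genes (6 genes) and -0.92 for keratins (2 genes), the last also at -0.92 with at least 200 in 1 line (4 genes). Of 4347 values of named genes under the alternatives 49 lost the call and 7 gained one, and none changed sign. Floored at 100, Krt19, Mest, Slc7a3 and Tcf7 lost their call, with log2 differences of 0.13, -0.41, 0.09 and 0.21. With the replicate block 7871 probe sets were called, 3940 higher and 3931 lower, and it changed the call of no gene named in the text. Whether the numbers pair the plates could not be settled. The deviations of plates of the same number correlated at 0.01, -0.27 and -0.24, and those of different numbers at -0.26 to 0.29. Deviations from a mean of 3 plates depend on each other, so these values cannot decide it. Groups of 3 arrays limit the precision, and below 100 the arrays give a bound rather than a level.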
